A study of Mus musculus with 8 samples.

Results

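The extracellular matrix genes measured here were 84 of the 12964 genes in the deposited table, chosen by gene symbol: collagen chains, laminin chains, fibronectin, fibrillins, fibulins, thrombospondins, lysyl oxidases, Adamts proteases, Timp inhibitors, periostin, osteonectin (Sparc), tenascin C, biglycan, decorin, nidogens, elastin and perlecan (Hspg2). By role they fell into 10 fibrillar collagens, 16 other collagens, 20 basement membrane genes, 14 glycoproteins and elastic fibre genes, 2 small proteoglycans, 5 lysyl oxidases, 14 Adamts proteases and 3 Timp inhibitors. The choice used no measured value, and all 84 passed the filter on low values.

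RNA sequencing had been done on PyMT cells, a mouse mammary tumour cell line driven by the polyoma middle T oncogene, labelled as genotype WT and as coming from a primary mammary tumour, and kept in culture medium with serum, insulin and EGF. The cells were sorted by flow cytometry into CD90pos and CD90neg populations, CD90 being the product of Thy1. Each population came as untreated control or after 10 IU/ml of interferon gamma (IFNg) for 24 h, which gave 4 groups of 2 libraries, and each group had a library lettered A and a library lettered B. The labels give neither the meaning of the letters nor whether the libraries were separate cultures, so the spread behind every p-value is that between these 8 libraries and may be technical. In such bulk samples a smaller number of cells of a kind and less RNA per cell cannot be told apart.

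The extracellular matrix is the protein scaffold around cells. Fibrillar collagens are secreted as procollagens, trimmed by procollagen peptidases (Adamts2, Adamts3 and Adamts14 among them) and cross-linked by lysyl oxidases. Basement membranes, the sheets on which mammary epithelium rests, are built from laminin trimers and type IV collagen networks joined by nidogens and perlecan, and Timp proteins inhibit the metalloproteases that degrade both kinds of matrix.

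The libraries held between 31243646 and 40899909 recovered reads, and 3 reads corresponded to between 2.55 and 3.37 normalized reads. Of the 84 genes, 8 were at 3 reads or fewer in at least 1 library. All 12 epithelial markers listed were detected, with summed levels from 283661 to 1033620 normalized reads. Thy1 separated the sorted populations under both letters, with at least 283 normalized reads in every CD90pos library and at most 65.5 in every CD90neg library. The other marker lists were covered in part: 6 of 13 fibroblast genes, 6 of 13 leukocyte genes, 5 of 10 pericyte and smooth muscle genes, and 1 of 10 endothelial genes (Flt1, 58.3 to 334 normalized reads).

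The 84 matrix genes made up 1.83% to 3.92% of a library's reads, and 3 glycoproteins held most of that share. Fn1 (fibronectin, the main cell-binding glycoprotein of provisional matrix), Thbs1 (thrombospondin, a matricellular protein) and Tnc (tenascin C, a glycoprotein of remodelling tissue) together took between 52.2% and 73.6% of the matrix reads. Per kilobase of exon, the mean levels were 40577 normalized reads for Thbs1, 23353 for Fn1, 13211 for Tnc, 11547 for the metalloprotease inhibitor Timp3 and 4558 for Adamts1, a secreted protease that cleaves versican and aggrecan. Beneath these, 15 genes in all lay above 1000 normalized reads per kilobase, 22 between 100 and 1000, 31 between 10 and 100, and 16 below 10. The median was 75.9 per kilobase for the matrix genes and 217 for all genes. The classical fibroblast collagens were low on average in these cells: per kilobase, Col1a1 averaged 34.4, Col1a2 42.0 and Col3a1 15.0 normalized reads, against 2577 for Lama5, 2006 for Col4a1 and 3396 for Col18a1 of the basement membrane. Col1a2 and Col3a1 were higher in every B library than in any A library. Their highest levels per kilobase were 120 for Col1a2 in CD90pos control B and 48.5 for Col3a1 in CD90neg IFNg B.

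**Figure D1:**
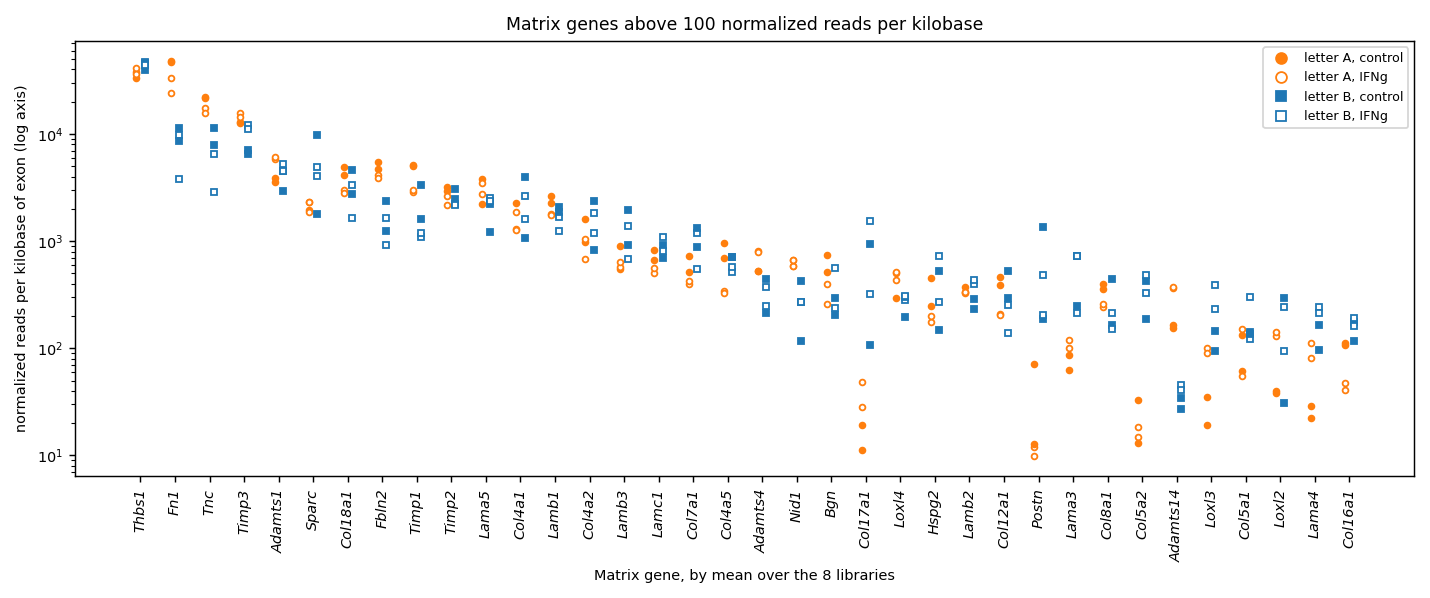
Levels of matrix genes with a mean above 100 normalized reads per kilobase of exon (log axis), 1 point per library, orange circles for letter A and blue squares for letter B, filled for control and open for IFNg. Thbs1 kept between 33347 and 46570 per kilobase in all 8 libraries, whereas Col17a1, Postn and Col5a2 were more than an order of magnitude apart between the letters on average.

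Thbs1 was the steadiest of the abundant genes. Its levels were 230279 (A) and 239382 (B) normalized reads in CD90pos control, 252708 and 282818 in CD90pos IFNg, 202515 and 276134 in CD90neg control, and 222185 and 265355 in CD90neg IFNg libraries. Fn1 (GRCm38 chromosome 1, 71585520 to 71653200) was at 565977 and 133611 in CD90pos control, 386250 and 115318 in CD90pos IFNg, 552730 and 101229 in CD90neg control, and 283383 and 44514 in CD90neg IFNg libraries. The A library of Fn1 was the higher in every group, and the letters did not overlap. Tnc had the same layout, with 122532 to 170793 normalized reads in the A libraries and 22473 to 87802 in the B libraries. Timp3 also did not overlap between letters, at 102891 to 127624 in A and 53158 to 97812 in B. Of the Timp3 exon bases 21.3% are shared with Syn3 on the opposite strand, and the strand setting of the counting was not stated.

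The libraries lettered A and B differed in many matrix genes. The mean A and B values lay at least 1 log2 unit apart for 43 of the 84 matrix genes (51.2%), against 15.8% of all genes tested, and the median absolute distance was 1.05 against 0.29 log2 units. In 27 matrix genes (32.1%) every B library was above every A library, against 13.9% of all genes, and in 10 (11.9%) every A library was above every B library, against 13.1% of all genes. Members higher in B included Lama1 (a laminin alpha chain of embryonic basement membranes, A minus B -5.40 log2 units), Eln (elastin, -5.12), Postn (periostin, a matricellular protein that binds collagen and integrins, -4.44), Col17a1 (a transmembrane collagen of the hemidesmosome, -4.33) and Col5a2 (a chain of the type V collagen that starts fibrils, -4.16). In the A libraries Lama1 had only 7 to 15 recovered reads and Eln 2 to 14, so the sizes of their differences rest on few reads. Members higher in A included Adamts14 (2.73), Fn1 (2.24), Thbs3 (1.86), Fbln2 (1.64) and Tnc (1.58). Among the other collagens, 8 of 16 were higher in all B libraries and 0 in all A libraries. None of the 5 lysyl oxidases separated by letter over all 8 libraries. Within every group, however, Lox (A minus B -0.80) and Loxl3 (-1.91) were higher in B, and Loxl4 (0.68) was higher in A.

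**Figure D2:**
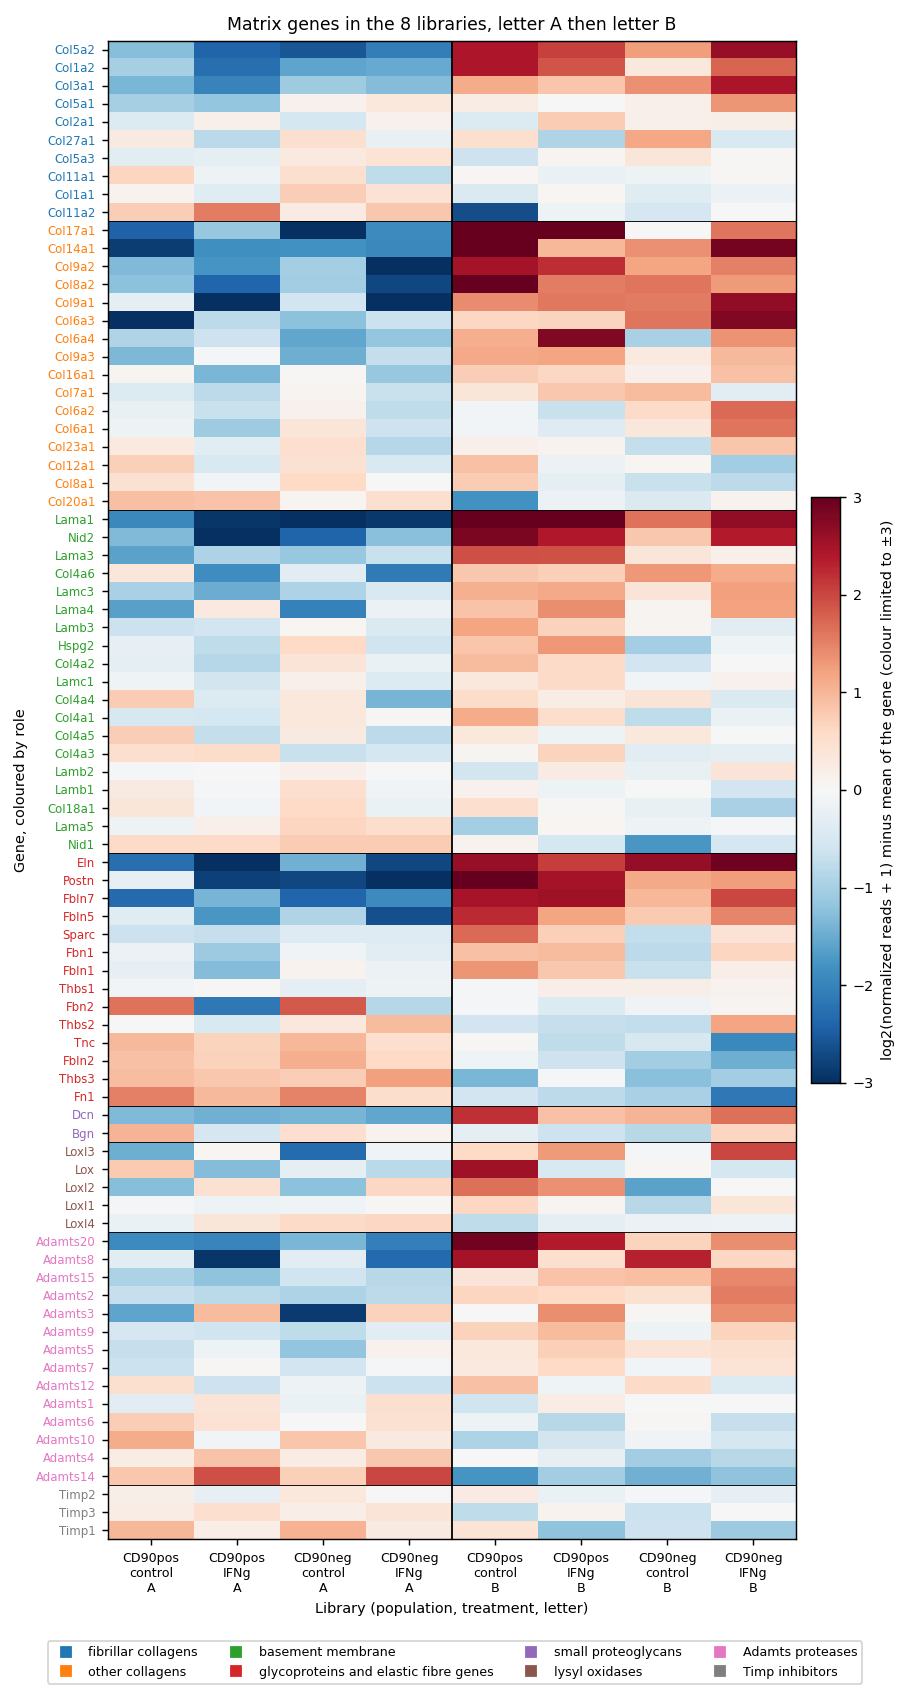
Values of 83 of the 84 matrix genes (rows, coloured by role and ordered within a role by the letter difference) in the 8 libraries (columns, 4 of letter A and 4 of letter B); colour is log2(normalized reads + 1) minus the mean of the gene, limited to 3 in either direction. The blocks of blue at upper left and red at upper right of the role groups are the genes higher in B, 27 of which did not overlap between letters, and 10 did not overlap in the reverse direction.

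Genes of the marker lists, epithelial ones among them, also differed by letter. The 5 measured pericyte and smooth muscle genes summed to between 2169 and 8384 normalized reads in the A libraries and between 60498 and 290383 in the B libraries. Most of that sum in B was Acta2, at 696 to 3658 in A against 46629 to 235195 in B. Cnn1, Myh11 and Mcam were also higher in every B library, while Notch3 overlapped (167 to 498 in A and 282 to 1005 in B). The 6 fibroblast genes went in different directions: Vim and Fgf7 were higher in every A library (Vim at 46445 to 72567 against 7320 to 19541), Cd34 and Pdgfrb were higher in every B library (Pdgfrb at 131 to 534 against 18.8 to 67.9 in A), and Pdgfra and Cxcl12 overlapped. Their sum, mostly Vim, was at 48950 to 73078 in A and 8603 to 22689 in B. Of the 6 leukocyte genes, Lyz2, Laptm5, Tyrobp and Cd68 were higher in every A library (Lyz2 at 621 to 1595 against 11.2 to 45.8 in B), and Csf1r and Cd14 overlapped. The epithelial list separated by letter in sum (283661 to 597966 in A and 882408 to 1033620 in B), while its members Trp63, Cdh1 and Esr1 overlapped. Among the basal keratins, Krt5 was at 94.7 to 393 in A and 1131 to 13452 in B. Krt14 was at 2872 to 6746 in A and 14650 to 30236 in B. Which cells carried the smooth muscle genes was not tested. The part of these marker differences in the matrix values was not tested.

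The main question of the design was what IFNg did to each population. In CD90pos cells the lysyl oxidase Lox, the metalloprotease Adamts8 and the matricellular gene Postn were lower with IFNg under both letters, by more than 2 log2 units on average, and Adamts3, a procollagen peptidase, was higher by 1.96. No matrix gene was called in the limma fit with 1 mean per group (adjusted p under 0.05; 0 of 84, against 2.11% of all genes called higher and 2.11% called lower), where the difference between letters counts as spread. Without adjustment, 6 of the 84 (7.14%) had a p under 0.05, against 22.9% of all genes. EdgeR without the letter also called 0, against 3.23% of all genes, while DESeq2 called 4 (4.76%), against 15.8%. With the letter as a block, limma called 15 matrix genes, 7 higher (8.33% of the 84, against 14.0% of all genes) and 8 lower (9.52%, against 13.6%). Both shares were below those of all genes, so the matrix genes were not called more often than other genes. The median difference of the 84 genes was -0.32 log2 units (-0.32 within A and -0.22 within B) against 0.01 for all genes. Under both letters 45 of the 84 were lower, against 37.5% of all genes, and 21 were higher, against 37.1%. Every difference is on the scale of log2(normalized reads + 1).

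Among the lysyl oxidases, which oxidise lysine side chains of collagen and elastin, Lox was lower and Loxl3 and Loxl4 were higher. Lox was at 373 (A) and 1257 (B) normalized reads in CD90pos control and 85.9 and 156 in CD90pos IFNg libraries, and at 179 and 221 in CD90neg control and 121 and 148 in CD90neg IFNg libraries. Both CD90pos control libraries lay above the other 6. The difference with IFNg in CD90pos cells was -2.55 log2 units (SE 0.61, adjusted p = 0.0721; with the letter as a block SE 0.37, adjusted p = 0.00541). Loxl3 (chromosome 6, 83034173 to 83052562) went from 162 and 671 to 464 and 1076 normalized reads, a difference of 1.10 (adjusted p = 0.659, and 0.0260 with the block). Its exons overlap Htra2 on the opposite strand. Loxl4 had a difference of 0.54 (0.518, and 0.0182 with the block). Loxl1 and Loxl2 were not called.

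The collagens called were Col27a1, Col12a1 and Col4a5, all lower. Col27a1 (chromosome 4, 63214004 to 63334991), a fibrillar collagen of cartilage, was at 753 and 878 normalized reads in CD90pos control and 358 and 334 in CD90pos IFNg libraries, with 880 and 1396 against 534 and 454 in CD90neg cells. In both populations each IFNg library was below each control library. The CD90pos difference was -1.23 log2 units (SE 0.26, adjusted p = 0.0549; with the block SE 0.23, adjusted p = 0.0113). Col12a1 (chromosome 9, 79598991 to 79718831), which decorates type I collagen fibrils, was at 7032 and 7939 in CD90pos control and 3149 and 3839 in CD90pos IFNg libraries, and at 5974 and 4526 against 3143 and 2109 in CD90neg cells. Here too the IFNg libraries lay below the control libraries of their population, by -1.10 in CD90pos cells (SE 0.25; limma adjusted p = 0.0633 alone and 0.0140 with the block). Col4a5, a basement membrane chain, differed by -0.97 (0.0403 with the block). The other 9 fibrillar and 15 other collagens were not called, and their differences reached from -1.38 to 1.65.

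In the basement membrane, 2 laminin alpha chains were called higher. Lama4 (chromosome 10, 38965515 to 39110188), a laminin chain typical of vessels and mesenchyme, went from 352 and 1976 normalized reads in CD90pos control to 1352 and 2909 in CD90pos IFNg libraries, and from 268 and 1165 to 982 and 2562 in CD90neg cells. The IFNg library was the higher in each of the 4 pairs of one letter and population, although control B overlapped IFNg A. Its CD90pos difference was 1.25 (SE 1.07, adjusted p = 0.574; with the block SE 0.32, adjusted p = 0.0306). Lama5, the alpha chain of most epithelial basement membranes, was at 25182 and 13851 in CD90pos control and 31121 and 29017 in CD90pos IFNg libraries, a difference of 0.69 (0.0415 with the block). The other 17 basement membrane genes, among them Col4a1, Col4a2, Hspg2 and both nidogens, were not called.

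Postn was the 1 gene called among the 14 glycoproteins and elastic fibre genes. Postn (chromosome 3, 54361109 to 54391037) was at 622 and 11887 normalized reads in CD90pos control and 105 and 4172 in CD90pos IFNg libraries, and at 111 and 1625 in CD90neg control and 85.8 and 1762 in CD90neg IFNg libraries. CD90pos control was the highest library of its letter, and the B library exceeded the A library more than 10-fold in every group. The CD90pos difference was -2.03 (SE 2.57, adjusted p = 0.727; with the block SE 0.32, adjusted p = 0.00639), with -2.56 in A and -1.51 in B. Without the letter in the fit, its sign turned when CD90pos control B (0.09) or CD90pos IFNg A (0.62) was left out. Bgn and Dcn, small leucine-rich proteoglycans that bind collagen fibrils, were not called, with differences of -0.93 and -0.73.

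Of the Adamts proteases, which carry thrombospondin repeats, 3 were called higher and 2 lower. Adamts8 (chromosome 9, 30942562 to 30963838) was at 140 and 1012 normalized reads in CD90pos control and 22.7 and 250 in CD90pos IFNg libraries, with 140 and 878 against 34.5 and 273 in CD90neg cells. Control was above IFNg in each pair, by -2.29 log2 units in CD90pos cells (SE 1.72, adjusted p = 0.511; with the block SE 0.25, adjusted p = 0.00273). Adamts3 (chromosome 5, 89677087 to 89883334) went from 29.6 and 89.8 to 174 and 239 in CD90pos and from 11.3 and 91.6 to 145 and 238 in CD90neg cells. All 4 IFNg libraries of Adamts3 were above all 4 control libraries, and the CD90pos difference was 1.96 (SE 1.02, adjusted p = 0.323; with the block SE 0.58, adjusted p = 0.0457). Adamts1 was at 18840 and 15593 in CD90pos control and 30749 and 27579 in CD90pos IFNg libraries, and at 20394 and 23821 against 32636 and 23739 in CD90neg cells. In CD90pos cells the IFNg libraries were the higher by 0.76 (SE 0.21; adjusted p = 0.0942 alone and 0.0208 with the block). Adamts14, the procollagen peptidase, differed by 0.93 (0.0384 with the block) and Adamts12, which cleaves cartilage oligomeric matrix protein, by -1.04 (0.0352). Exons of Adamts8 overlap Gm29724 on the opposite strand.

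Timp1 (chromosome X, 20870166 to 20874735), a secreted inhibitor of matrix metalloproteases, was lower with IFNg. It was at 4436 and 2954 normalized reads in CD90pos control and 2559 and 970 in CD90pos IFNg libraries, and at 4580 and 1437 against 2691 and 1048 in CD90neg cells. Control was the higher in each pair, and the CD90pos difference was -1.20 (SE 0.76, adjusted p = 0.423; with the block SE 0.24, adjusted p = 0.0142). Timp2 (-0.44) and Timp3 (0.58) were not called.

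**Figure D3:**
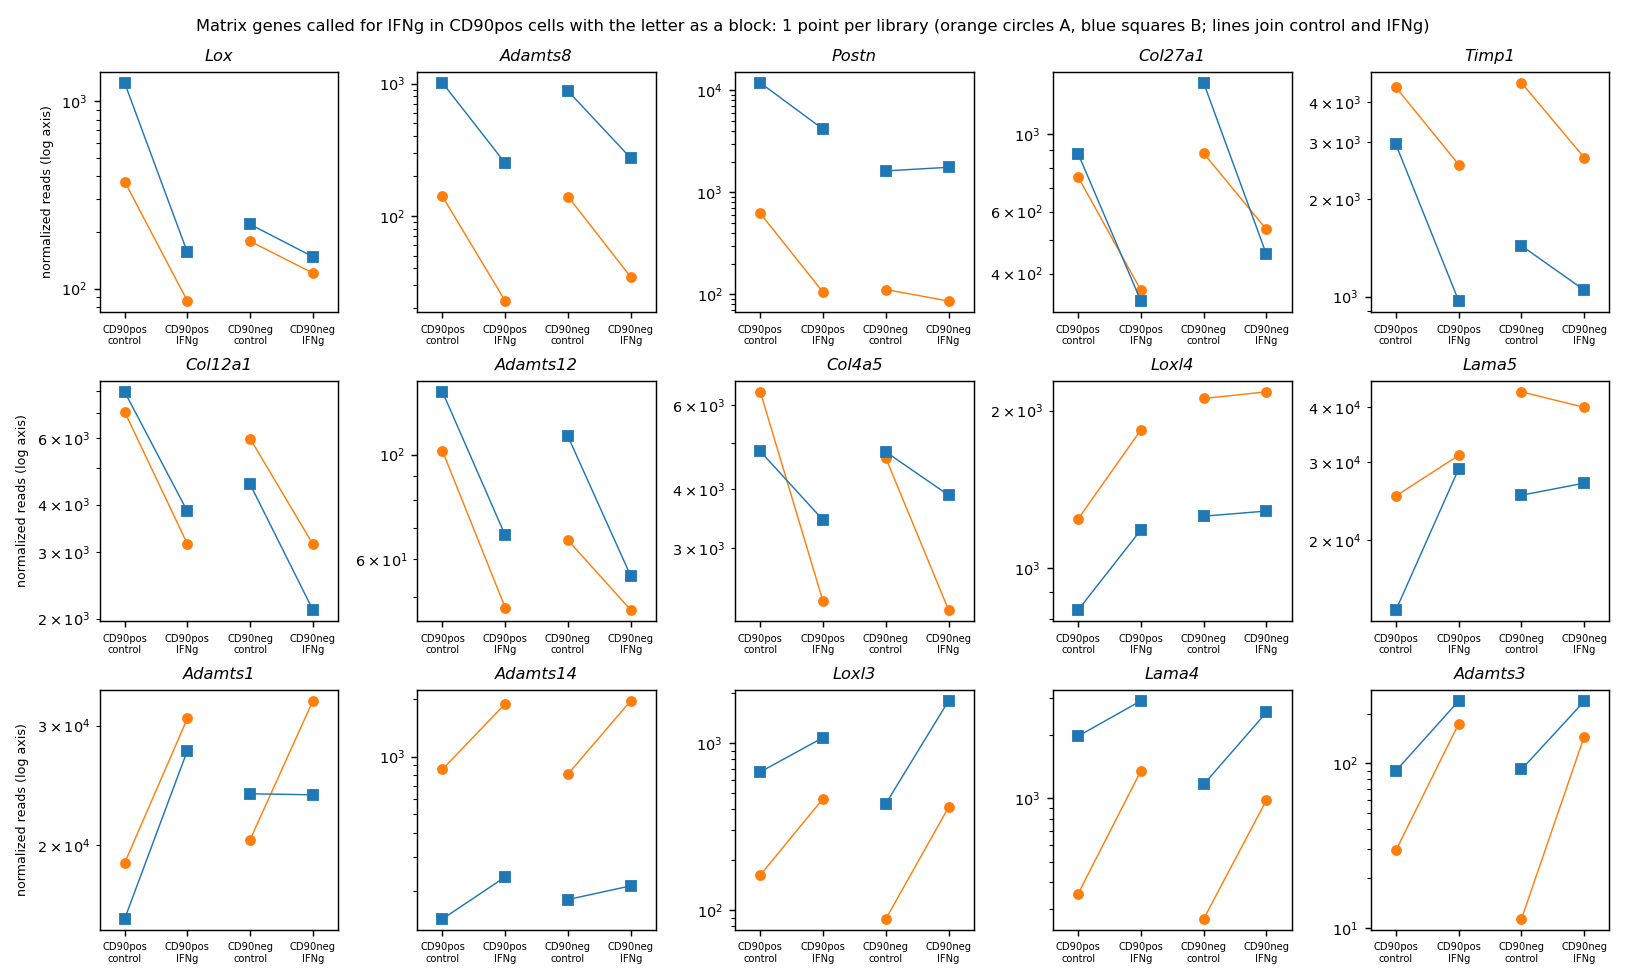
Normalized reads (log axes) of the 15 matrix genes called for IFNg in CD90pos cells with the letter as a block, 1 point per library, orange circles for A and blue squares for B, lines joining control and IFNg of a population and letter. Both letters slope down in CD90pos cells for 8 genes, among them Lox (-2.55 log2 units) and Postn (-2.03), and up for 7, among them Adamts3 (1.96).

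Marker levels moved with IFNg in CD90pos cells as well. The summed pericyte and smooth muscle list was at 8384 and 290383 normalized reads in control and 3411 and 159851 in IFNg libraries. The leukocyte list was at 3406 and 1440 against 1717 and 890, and the epithelial list at 283661 and 882408 against 597966 and 1033620. Not every member followed its sum. The epithelial gene Trp63 was the lower with IFNg under both letters. Krt5, Krt14, Krt17, Krt19, Elf5, Notch3, Cd68 and Tyrobp went in opposite directions under the letters. The summed fibroblast list went in opposite directions under the letters, from 48950 and 22689 to 73078 and 19319; of its 6 genes, Vim was the higher with IFNg under both letters and the other 5 were the lower, among them Cxcl12, from 2178 and 4652 to 360 and 1310. Thy1, the gene of the sort marker, went from 283 and 1495 to 2195 and 3936. Their part in the matrix differences was not tested.

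The 15 calls differed in how they held. When each library was left out in turn with the letter as a block, Postn and Adamts8 were called in all 8 fits, Lox in 7, Lama4, Col27a1, Timp1, Col12a1 and Loxl4 in 6, Loxl3 and Adamts1 in 5, Adamts14 in 4, Col4a5 in 3, Adamts3 in 2, and Adamts12 and Lama5 in 1. Fewest of the 15 held without a CD90pos IFNg library, where calls over all genes also fell. Fold changes in this comparison also moved with exon length across all genes (Spearman 0.252, a description over genes), and the matrix genes are long, with a median exon length of 7008 bases against 4434. With the trends on length and GC content removed and the letter as a block, 0 matrix genes were called higher, against 6.97% of all genes, and 12 (14.3% of the 84) lower, against 10.2%. All 7 of the genes called higher missed the threshold there, and the 8 lower ones were joined by Col8a2, Col5a2, Lamb1 and Timp2. The median of the 84 genes was then -0.63, and that of all genes -0.06.

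Promoter sequences are shown for 4 of the called genes, to set the letters upstream of genes that were lower (Postn, Timp1) beside those of genes that were higher (Adamts1, Adamts3). They are the 250 bases before the start site of the RefSeq annotation of GRCm38.p6, written on the strand of the gene, at chr3:54360857-54361106 (plus strand) for Postn, chrX:20869916-20870165 (plus) for Timp1, chr16:85803114-85803363 (minus) for Adamts1 and chr5:89883335-89883584 (minus) for Adamts3. Of the 84 genes 54 were in the promoter table, and of the 15 called genes 10 were, 6 of them with a start within 10 bases of that in the deposited annotation. Capitals mark matches, on either strand, to the TATA box TATAAA and the GC box GGGCGG; 3 further motifs were searched, the interferon gamma activated site TTCNNNGAA, the core of the interferon-stimulated response element (GAAA, any 2 bases, GAAA) and the AP-1 site TGANTCA.
Postn: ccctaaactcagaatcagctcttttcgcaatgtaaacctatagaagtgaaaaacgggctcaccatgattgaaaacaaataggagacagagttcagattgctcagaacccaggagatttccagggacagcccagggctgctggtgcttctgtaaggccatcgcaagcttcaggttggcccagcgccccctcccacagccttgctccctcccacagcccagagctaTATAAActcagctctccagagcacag
Timp1: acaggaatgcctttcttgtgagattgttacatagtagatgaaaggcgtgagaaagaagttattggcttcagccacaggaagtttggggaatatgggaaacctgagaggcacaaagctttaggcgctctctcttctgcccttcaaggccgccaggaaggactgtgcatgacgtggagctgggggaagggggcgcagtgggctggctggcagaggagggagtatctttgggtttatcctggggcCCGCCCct
Adamts1: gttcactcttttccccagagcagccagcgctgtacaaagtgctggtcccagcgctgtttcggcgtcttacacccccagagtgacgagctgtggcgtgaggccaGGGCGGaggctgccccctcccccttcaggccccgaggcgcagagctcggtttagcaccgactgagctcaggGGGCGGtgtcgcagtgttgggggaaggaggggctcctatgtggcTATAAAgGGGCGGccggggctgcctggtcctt
Adamts3: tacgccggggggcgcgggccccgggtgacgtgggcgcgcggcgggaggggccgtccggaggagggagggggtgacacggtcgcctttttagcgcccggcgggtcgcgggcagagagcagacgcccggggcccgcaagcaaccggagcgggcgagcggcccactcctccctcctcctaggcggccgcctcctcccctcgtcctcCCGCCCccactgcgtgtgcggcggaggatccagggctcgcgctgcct

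A TATA box began 26 bases before the start of Postn (position -26) and at -32 in Adamts1. GC boxes began at -8 in Timp1, at -147, -76 and -25 in Adamts1 and at -47 in Adamts3. None of the 4 stretches held a match to these 3 motifs. In windows from 250 bases before to 50 after the start, the TTCNNNGAA motif was in 1 of the 54 matrix promoters (Lamb2; 5.73% of 9918 promoters in the table), the response element core in 1 (Fbn1; 2.66%), TGANTCA in 1 (Col6a1; 4.37%), TATAAA in 7 (5.99%) and GGGCGG in 38 (61.0%). The 7 promoters with a TATA box were those of Adamts1, Thbs2, Col11a2, Col17a1, Col3a1, Postn and Tnc. A match describes these letters and is not a measured binding site.

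In CD90neg cells, with the letter as a block, the lysyl oxidase Loxl3 was called higher and Adamts8 and Col27a1 lower with IFNg; Col27a1 held in 1 of 8 fits with a library left out. The limma fit without the letter called 0 of 84 (against 0.633% of all genes higher and 0.00771% lower), with 5 at an unadjusted p under 0.05 (5.95%, against 5.62% of all genes), 0 in edgeR (against 0.478%) and 2 in DESeq2 (Col27a1 and Col12a1; 2.38%, against 2.83%). With the letter as a block the calls were 1 of 84 higher (against 3.48% of all genes) and 2 of 84 lower (against 0.663%). Loxl3 went from 88.5 and 433 to 412 and 1787 normalized reads, a difference of 2.12 (SE 1.13, adjusted p = 1; with the block SE 0.27, adjusted p = 0.00714). Its IFNg library was more than 4-fold above control under each letter. Adamts8 differed by -1.84 (0.00939 with the block) and Col27a1 by -1.17 (0.0425). When each library was left out in turn with the block, Loxl3 was called in 6 fits and Adamts8 in 4. Adamts8 was not called in any fit that left out a CD90neg library, control or IFNg. Loxl3 was not called without CD90neg control A or CD90neg IFNg B, and Col27a1 was called only without CD90neg control A. Calls over all genes also fell in each fit without a CD90neg library. Col27a1 also missed the threshold with quantile normalization. With the length and GC trends removed, Loxl3 and Adamts8 were still called and Col27a1 was not (1 higher, against 3.12% of all genes, and 1 lower, against 1.16%). The summed pericyte and smooth muscle markers were at 3632 and 60498 normalized reads in CD90neg control and 2169 and 84334 in CD90neg IFNg libraries. The fibroblast list, mostly Vim, was at 52511 and 8603 against 69298 and 21005. Of its genes, only Vim was the higher with IFNg under both letters. Cxcl12 and Cd34 were the lower under both, and Pdgfra, Pdgfrb and Fgf7 went in opposite directions. The part of the markers in these differences was not tested.

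Thbs2 and Col12a1 had small p-values in CD90neg cells without being called. Thbs2 (chromosome 17, 14665500 to 14694262), an anti-angiogenic thrombospondin, was at 218 and 105 normalized reads in CD90neg control and 341 and 404 in CD90neg IFNg libraries, and at 176 and 119 against 127 and 109 in CD90pos cells. Both CD90neg IFNg libraries were above the other 6. The CD90neg difference was 1.29 (SE 0.42; adjusted p = 0.578 alone and 0.0998 with the block) and that of Col12a1 was -1.01 (0.286, and 0.0612). The median of the 84 genes was 0.12 log2 units, with -0.24 within A and 0.49 within B, so the letters differed in sign.

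Whether IFNg acted differently in the populations was tested as the interaction, the CD90pos effect minus the CD90neg effect. It was called for 0 matrix genes and for 0% of all genes in limma with or without the letter, with 1 matrix gene at an unadjusted p under 0.05 without it (1.19%, against 6.37% of all genes). EdgeR called 0 matrix genes and 0% of all genes, and DESeq2 0 of 32 matrix genes and 3.36% of all genes to which it gave an adjusted p. The smallest p-values were those of Thbs2 (-1.58, SE 0.59, adjusted p = 0.783), Lox (-1.99, SE 0.86, adjusted p = 0.788) and Loxl1 (-1.01, SE 0.51, adjusted p = 0.849). Lox was lower by -2.55 in CD90pos cells and differed by -0.57 in CD90neg cells. Adamts8, Col27a1 and Loxl3, called in both populations with the block, had the same sign in both.

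**Figure D4:**
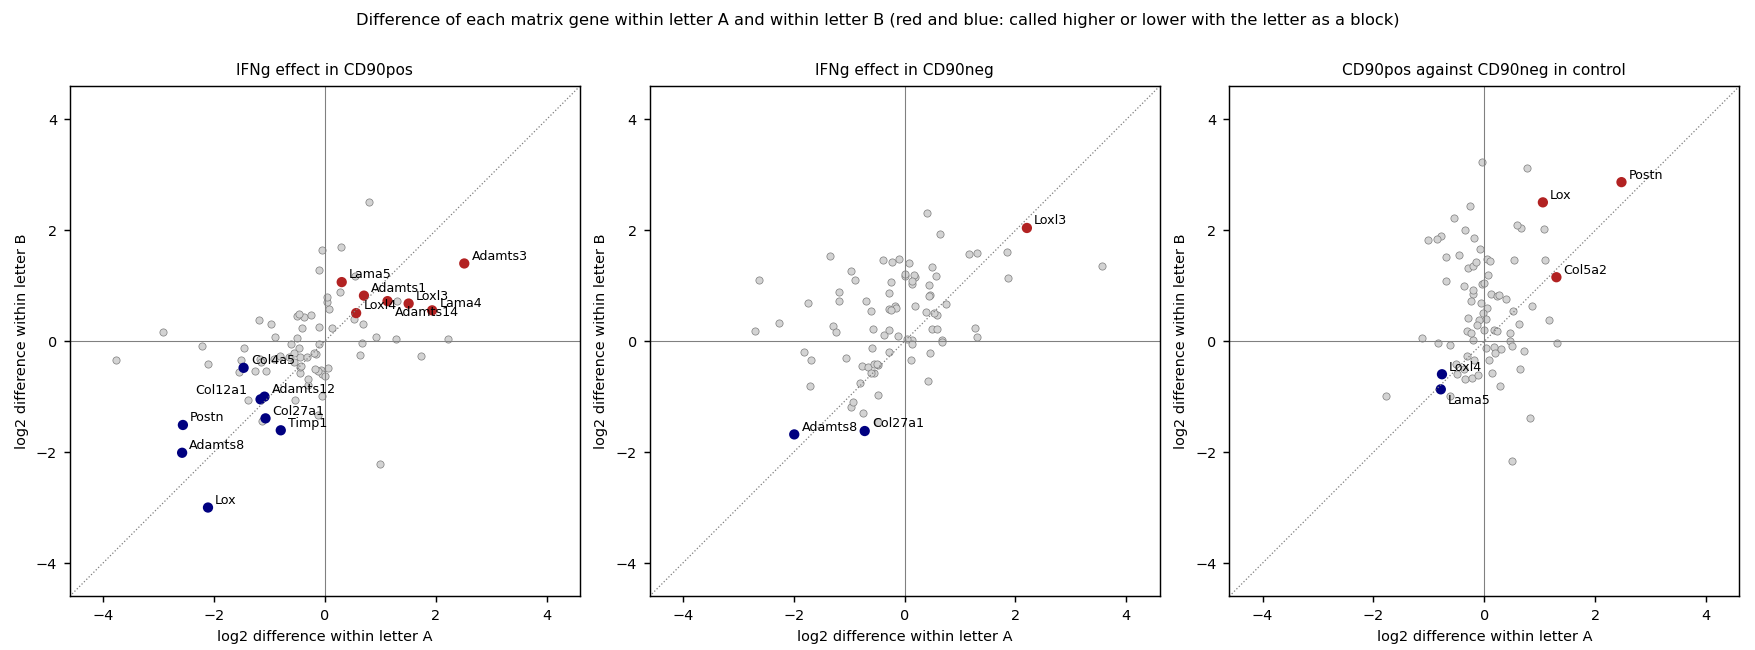
Difference of each of the 84 matrix genes within letter A (horizontal, log2 units) and within letter B (vertical), for IFNg in CD90pos cells, IFNg in CD90neg cells and CD90pos against CD90neg control cells; red and blue points were called higher or lower with the letter as a block and the dotted line marks equal differences. In the first panel 45 of the 84 genes lie lower under both letters, against 37.5% of all genes. In the third panel the median lies at 0.46 along B and at -0.03 along A.

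CD90pos control cells differed from CD90neg control cells in 5 matrix genes, all called with the letter as a block. Postn (2.67 log2 units), Lox (1.78) and Col5a2 (1.23) were higher in CD90pos cells, and Lama5 (-0.83) and Loxl4 (-0.68) were lower. That is 3 of 84 higher against 6.80% of all genes and 2 of 84 lower against 4.40%. Without the letter limma called 0 matrix genes and 0% of all genes, with 1 matrix gene at an unadjusted p under 0.05 (1.19%, against 14.6% of all genes), edgeR called 0 and 0% of all genes, and DESeq2 called 1 of 64 matrix genes (Lox) and 9.01% of all genes to which it gave an adjusted p. This comparison shares the CD90pos control libraries with the IFNg comparison in CD90pos cells, so the opposite signs of Postn, Lox, Lama5 and Loxl4 in both are not independent of each other. The summed pericyte and smooth muscle markers were at 8384 and 290383 normalized reads in CD90pos control and 3632 and 60498 in CD90neg control libraries. Of these markers, Notch3 went in opposite directions under the letters (498 against 479 in A, and 282 against 725 in B). The part of the markers in these differences was not tested.

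Postn was higher in CD90pos control cells by 2.47 within A and 2.87 within B (adjusted p = 0.746, and 0.0288 with the block), with the values given above, and Lox by 1.06 and 2.51 (0.263, and 0.0365). Col5a2 (chromosome 1, 45374321 to 45503282) was at 313 and 4032 normalized reads in CD90pos control and 127 and 1810 in CD90neg control libraries, and at 141 and 3116 against 178 and 4591 with IFNg. In control the CD90pos library was the higher under each letter, while with IFNg it was the lower. Lama5 (chromosome 2, 180176373 to 180225859) was at 25182 and 13851 in CD90pos control, 43419 and 25268 in CD90neg control, 31121 and 29017 in CD90pos IFNg, and 40023 and 26912 in CD90neg IFNg libraries. Loxl4 (chromosome 19, 42593982 to 42612813) was at 1241 and 832 in CD90pos control and 2110 and 1257 in CD90neg control libraries, and at 1838 and 1183 against 2173 and 1285 with IFNg. Within each letter, CD90pos control was the lowest library for both genes.

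The 5 population calls did not hold in every fit with a library left out. Leaving out 1 library at a time, the blocked fit called Postn in 4 of 8 fits, Loxl4 in 2, and Lox, Col5a2 and Lama5 in 1 each. Each of these calls came in a fit that left out a CD90pos library, and none without a CD90neg library. A fit of this kind leaves 1 library in a group, and its calls over all genes moved as well. The tallies are therefore not particular to the matrix genes. With the length and GC trends removed, 0 matrix genes were called, against 0.0154% of all genes higher and 0.0231% lower. Without the letter, Col5a2 turned sign when CD90pos control B (-0.61) or CD90neg control A (-0.69) was left out. Of the named genes that were not called, Col4a3, a type IV collagen chain, was at 162 and 121 in CD90pos control and 72.0 and 92.6 in CD90neg control libraries (0.77, adjusted p = 0.348), and Loxl1 at 213 and 336 against 200 and 123 (0.77, 0.406).

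**Figure D5:**
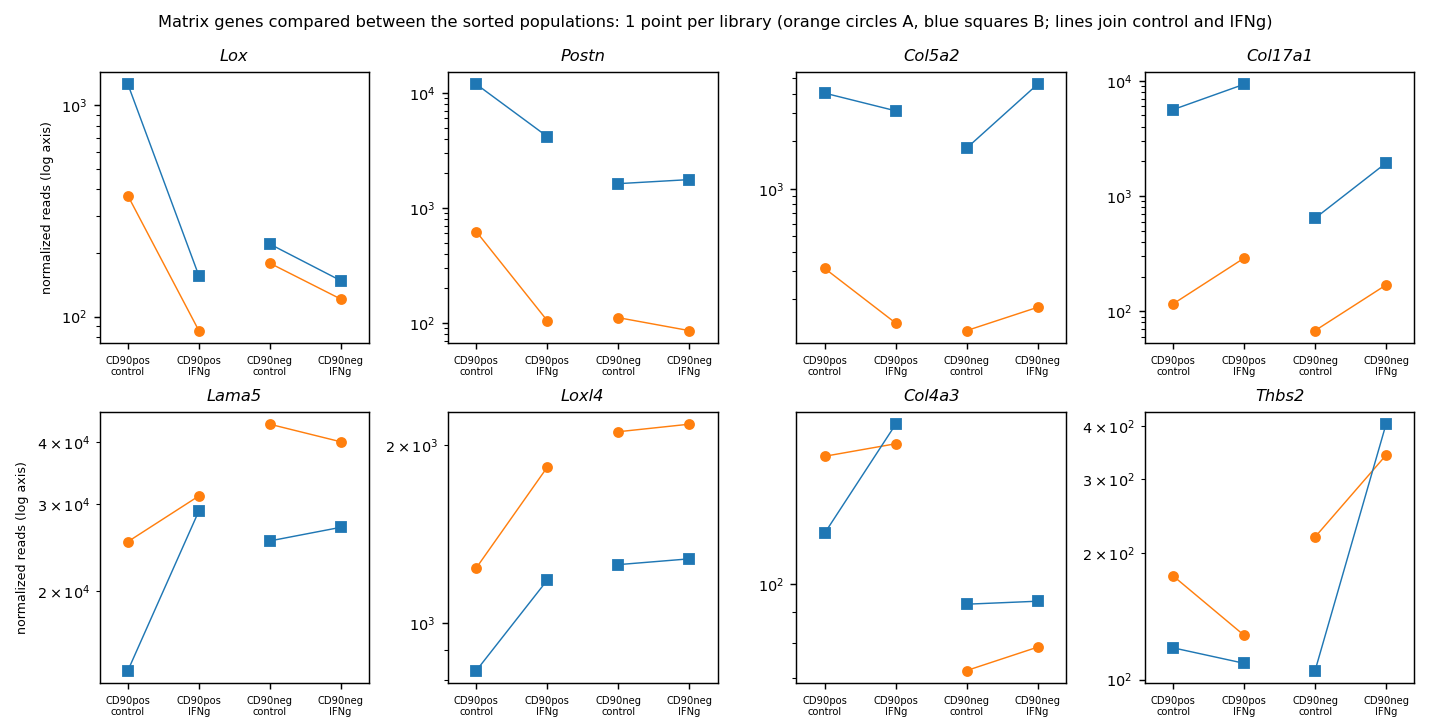
Normalized reads (log axes) of 8 matrix genes in the sorted populations, 1 point per library, orange circles for A and blue squares for B, lines joining control and IFNg. Postn, Lox and Col5a2 are highest in CD90pos control among the control libraries of a letter, Lama5 and Loxl4 are lowest there, and Col4a3 lies higher in both CD90pos groups than in CD90neg libraries of either letter.

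With IFNg present, no matrix gene was called between the populations, and hardly any other gene was. Limma called 0 matrix genes and 0% of all genes with or without the letter, with 2 matrix genes at an unadjusted p under 0.05 without it (2.38%, against 0.131% of all genes). EdgeR and DESeq2 called 0 matrix genes, against 0% and 0.00771% of all genes. Thbs2 had the smallest p-value, at -1.65 (SE 0.42, adjusted p = 1), lower in CD90pos cells under both letters. Col4a3 was at 170 and 183 normalized reads in CD90pos IFNg and 78.7 and 93.6 in CD90neg IFNg libraries, and Col5a1, a type V collagen chain, at 464 and 1036 against 1280 and 2576. The CD90pos libraries of Col4a3 were above all 4 CD90neg libraries in both conditions. The median of the 84 genes was -0.01.

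Genes that work on or bind the matrix were counted from lists. Among 20 measured collagen-processing enzymes and chaperones, 1 was called higher with IFNg in CD90pos cells without the letter, against 2.11% of all genes. This was P3h2 (prolyl 3-hydroxylase), from 437 and 517 to 1177 and 1354 normalized reads (1.41, SE 0.21, adjusted p = 0.0339). All 4 IFNg libraries of P3h2 were above all 4 control libraries, since CD90neg cells had 659 and 489 against 1458 and 1236. With the block the list had 3 higher (Tgm2, P3h2 and Plod3) and 2 lower (the lysyl hydroxylase Plod2 and the prolyl hydroxylase subunit P4ha2), and a median of -0.26. These are 15.0% and 10.0% of the list, near the 14.0% of all genes called higher and 13.6% called lower.

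Of 22 matrix receptors, 2 were called higher in CD90pos cells without the letter, against 2.11% of all genes. They were the collagen receptor Ddr1 and the laminin-binding integrin chain Itgb4. Ddr1 went from 4338 and 3279 to 24945 and 12605 normalized reads in CD90pos cells (2.23, SE 0.39, adjusted p = 0.0409) and from 5495 and 4223 to 23236 and 14450 in CD90neg cells. Every IFNg library of Ddr1 exceeded every control library. Itgb4 went from 13346 and 11899 to 22189 and 24034 in CD90pos cells (0.87, SE 0.15, adjusted p = 0.0380), and was at 19619 and 16938 against 20434 and 18310 in CD90neg cells. With the block 3 receptors were higher (Ddr1, Ddr2 and Itgb4) and 3 lower (Itga2, Itgav and Itgb1), each 13.6% of the list, against 14.0% and 13.6% of all genes.

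Among 20 metalloproteases and plasmin system genes, 0 were called without the letter, and with the block 6 were lower (30.0%, against 13.6% of all genes) and 1 higher (5.00%, against 14.0%) in CD90pos cells. The stromelysins Mmp3 (-4.27) and Mmp10 (-3.43), the collagenase Mmp13 (-2.70), the elastase Mmp12 (-2.43) and the plasminogen activator Plat (-0.97) were among those lower, and Mmp17 (2.87), a membrane-anchored protease, was higher. Mmp10 was at 2581 and 257 normalized reads in CD90pos control and 234 and 23.5 in CD90pos IFNg libraries, and at 1440 and 115 against 312 and 28.1 in CD90neg cells. Each IFNg value was below its control, about 10-fold in CD90pos cells, and Mmp10 was also called lower in CD90neg cells. The list median was -0.52 in CD90pos and -0.34 in CD90neg cells, against 0.01 and -0.02 for all genes.

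Of 34 measured matrix proteins outside the symbol rule, 0 were called without the letter and 4 were higher (11.8%, against 14.0% of all genes) and 9 lower (26.5%, against 13.6%) with the block in CD90pos cells. Ogn (osteoglycin, -2.91), the growth factor binding Ltbp2 (-1.08) and Ctgf (-1.22) were among those lower, and Agrn (agrin of basement membranes, 0.56) among those higher. Of 19 TGF-beta pathway genes 0 were called without the letter, and Tgfb3 (-1.16) and Tgfb2 (-0.96) were lower with the block (10.5% of the list, against 13.6% of all genes). Tgfb3 went from 3423 and 8042 to 1529 and 3585 normalized reads, lower by nearly the same amount under both letters.

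Chains that assemble together did not always keep a common level. Per kilobase of exon, the ratio of Col4a1 to Col4a2, chains of 1 trimer whose genes lie head to head on chromosome 8, stayed between 1.32 and 1.87 in the 8 libraries, and that of Col6a1 to Col6a2 between 2.95 and 4.76. By contrast, Col1a2 to Col1a1, the chains of type I collagen, ranged from 0.134 to 4.91 per kilobase, with Col1a2 at 4.61 to 11.1 normalized reads per kilobase in A and 28.0 to 120.1 in B and Col1a1 at 25.9 to 54.9 and 24.5 to 34.2. Col4a5 to Col4a6 ranged from 3.61 to 19.5 per kilobase, and Col6a3, another type VI chain, to Col6a1 from 0.0158 to 0.299. Col6a3 was higher in every B library, at 131 to 592 normalized reads against 9.85 to 53.9 in A. Lama5 was the alpha chain with the highest level per kilobase in every library (1216 to 3813), above Lama3 (63.3 to 733), Lama4 (22.2 to 241) and Lama1 (0.744 to 73.7). Nid1 exceeded Nid2 in every library, at 116 to 666 against 0 to 14.5 per kilobase.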

How the data were processed

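Poly(A) RNA libraries were made with a stranded kit, per the labels' protocols. The submitters' processing notes name STAR, HTSeq, mm10 and GRCm38, with no version; no source used here gives the strand setting of the counting. The authors deposited 1 table of normalized reads per gene (read counts divided by a size factor, a signal that is never negative) for 12964 genes and 8 libraries. Dividing each column by its smallest step gave whole reads for 100% of values within a tolerance of 0.001. Gene coordinates are those of the deposited table, and exon lengths and GC content came from GENCODE vM21, in which 73 of the 84 matrix genes had the same coordinates. Libraries held 31243646 to 40899909 recovered reads; floors of 3 reads cover counting error only, because amplified reads carry no molecular identifiers.

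Values were analysed as log2(normalized reads + 1), which understates changes of low genes. Tests covered the 12962 genes that reached 10 normalized reads in 2 or more libraries and used limma 3.58.1 (R 4.3.3) with a trend of variance on mean, two-sided, with 1 mean per group over all 8 libraries, and p-values were adjusted by the Benjamini-Hochberg method over all genes tested in each of 5 comparisons. All adjusted p-values come from limma unless another tool is named. The values were not raw counts, so edgeR 4.0.16 and DESeq2 1.42.0 on the recovered reads were alternatives only. The limma and edgeR fits, with and without the letter as a block, were tested on simulated data with known changes in the CD90pos IFNg libraries. DESeq2 and the other alternatives were not. In the simulation every gene had the same setting of spread, and the letter effect of a gene was equal in all groups. How reliable the blocked calls are where the real libraries differ from this was not tested.

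The letters were taken to pair the libraries because the A minus B differences correlated across genes with 0.779 to 0.920 over the 6 pairs of groups, and the first principal component (51.5% of the variance) separated the letters; values with the letter as a block stand beside the results they change. Residual degrees of freedom were 4 without and 3 with the block.

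The genes, lists and tests were chosen with earlier results of these data known. Values in all libraries are given for genes called without the letter, the 3 smallest p-values per comparison, up to 8 largest differences called with the block per comparison and the 5 highest levels per kilobase; other members are given by range, and a few by value after their values were seen. Alternatives were another pseudocount, filter, scaling or tool, the block, removal of trends on exon length and GC content, and leaving out each library. Lum, which the symbol rule also names, was not analysed here. Some genes counted among the members and lists are not reported here by name or drawn in the plots of single genes.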

Additional observations from a re-analysis of the deposited data

How the results depend on the processing

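The number of matrix genes called without the letter was 0 in all 5 comparisons and stayed 0 with a pseudocount of 0.5 or 5, without the filter on low values, with quantile normalization, median centring or edgeR, and without each library in turn (0 to 0). It changed with the letter as a replicate block (15 for IFNg in CD90pos cells, 3 for IFNg in CD90neg cells, 5 for the control populations), with edgeR and the block (15, 3 and 5), with DESeq2 without the block (4, 2 and 1), and with the block and length and GC trends removed (12 and 2 for the IFNg comparisons); for the control populations this last setting gave 0 in place of the 5 called with the block. The cause was not tested. The populations compared with IFNg present, and the interaction, gave 0 in each of these settings. Over the 26 differences of named genes, 415 recomputed values kept their direction and side of the threshold, 46 came to pass it (with the block or DESeq2) and 4 turned sign. Leaving out 1 library with the block, a setting chosen after seeing the data, gave 2 to 15 calls for IFNg in CD90pos cells, 0 to 4 in CD90neg cells and 0 to 10 for the control populations. Of the named genes, 2 turned sign without the block when a library was left out, Postn for IFNg in CD90pos cells (-4.69 to 0.62, with 0.09 without CD90pos control B) and Col5a2 for the control populations (-0.69 to 3.14, with -0.61 without CD90pos control B). The median difference of the matrix genes within letter B was -0.22 for IFNg in CD90pos cells and 0.13 for the populations with IFNg. With 2 libraries per group, and only 1 of each letter, a difference that appeared under 1 letter could not be checked within that letter.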

Other observations

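The 84 matrix genes were spread unevenly over the libraries in which each was highest. CD90pos control B was the highest library for 23 of them (27.4%, against 19.7% of all genes), among them Sparc, Col4a1, Col4a2, Lamb3, Lama3, Dcn and Col1a2. CD90neg IFNg B was the highest for 16 (19.0%, against 11.6%), among them Col3a1, Col5a1, Col5a2, the type VI collagen chains Col6a1, Col6a2 and Col6a3, and Eln. CD90pos IFNg B was also the highest for 16 (19.0%, against 8.08%), among them Col17a1, Lama1, Lama4 and Hspg2, whereas CD90pos control A was the highest for 8 (9.52%, against 21.9%). CD90pos IFNg A was the lowest library for 19 (22.6%, against 8.65% of all genes).

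Col17a1, which anchors basal keratinocytes and myoepithelial cells to laminin, was at 116 (A) and 5623 (B) normalized reads in CD90pos control, 289 and 9321 in CD90pos IFNg, 67.9 and 642 in CD90neg control, and 169 and 1933 in CD90neg IFNg libraries. Within each letter the CD90pos library exceeded the CD90neg library of the same treatment, and IFNg exceeded control in both populations. The control difference between the populations was not called in limma (1.95 log2 units, adjusted p = 0.840, and 0.0675 with the letter as a block), and the gene was chosen here after its values were seen.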
